A study of Homo sapiens with 2 samples.

Results

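The zinc finger genes of human chromosome 19 that carry a plain ZNF symbol were followed in a pair of RNA-seq libraries. They were taken as the annotated rows of both deposited tables on chromosome 19 whose gene name is ZNF, a number and at most 1 further capital letter, with rows of 1 symbol summed. This rule gave 261 genes of 55773 annotated symbols. Of these, 245 are typed as protein coding in GENCODE release 29, 14 as pseudogenes or noncoding RNA, and ZNF8 and ZNF229 had no match to it by identifier. The libraries came from NCI-H2030, a lung adenocarcinoma cell line. In 1 library (AS) the cells were treated with miR-494-3p AS and in the other (SC) with SC; the labels spell out neither abbreviation, and both libraries are otherwise labelled alike. Total RNA was made into strand-keeping libraries. With 1 library in each group there is no replicate, so no test was made, no spread between replicates is known, and every difference below is one between these 2 libraries.

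Zinc finger proteins of this kind bind DNA through tandem C2H2 fingers, each a short fold that holds a zinc ion. Most of those on chromosome 19 also carry a KRAB box, which binds TRIM28 (KAP1); TRIM28 brings in the histone methyltransferase SETDB1 and heterochromatin proteins, and many of these repressors silence transposable elements. The genes arose largely by tandem duplication and stand in clusters along the chromosome, so near neighbours are often close copies. A KRAB box was found in 210 of the 245 coding members and not in the other 35. The coding members had a median of 13 fingers with a KRAB box and 9 without one, and ZNF208 had the most, 36.

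In this family the stretch that joins one finger to the next is nearly the same from gene to gene. In the coding members, 1166 such linkers with the classical spelling were found. The search asked for that spelling, so their likeness was in part set by it. The 3 commonest are shown, with the codon of the last histidine of the finger before in capitals.
Linker in 160 places: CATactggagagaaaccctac
Linker in 113 places: CATactggagagaaaccttac
Linker in 77 places: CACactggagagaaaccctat
Members with a KRAB box held a median of 5 of these linkers and 35 of them held none; of those without a KRAB box, 20 of 35 held none. A count of none need not mean that the gene lacks them. ZNF791, ZNF226 and ZNF599 held none but have 17, 17 and 14 fingers, and their longest coding transcript has a short annotated coding part. Over all coding and noncoding members with a transcript sequence, 55 shared at least 10% of their 50-base words with transcripts of other genes. The other genes need not be copies within the family. ZNF177 shared 97.8% of its words, none of them with another member, and it overlaps ZNF559-ZNF177 on its strand. ZNF625 shared 77.6%, but at most 0.307% with any 1 member. Reads that fall in shared words may be divided between genes by the counting, and values are uncertain to that extent.

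The treatment names a microRNA, so its sequence and sites were read as well. A microRNA pairs with a target chiefly through its seed, bases 2 to 8, in capitals here.
hsa-miR-494-3p: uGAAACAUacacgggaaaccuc
The sequence is that of RefSeq, from its gene on chromosome 14 (GRCh38.p14, 101029681 to 101029702, plus strand). Sites that match the seed were searched in the annotated 3' UTR of the longest coding transcript, on the transcript strand. They were ATGTTTCA or either of the 7-base words in it, ATGTTTC and TGTTTCA. In some members that transcript codes for less than the full protein, so its annotated 3' UTR may hold bases that code for fingers in another transcript. In ZNF791 it took up 6040 of 6412 bases and in ZNF226 5394 of 5972, though each gene has 17 fingers. Of 235 members with a 3' UTR, 67 (28.5%) held at least 1 such site, and of the 69 that were measured 16 (23.2%) did, against 27.2% of 10543 measured protein coding genes. The sites of 5 members are shown with their surroundings, the site in capitals: the only 2 measured members with the 8-base site, 1 member among the largest ratios, and the close relatives ZNF223 and ZNF226, which carry much the same site and whose TPM differed in opposite directions.
ZNF791: accacataatcATGTTTCAgtcagcaatgg
ZNF587: ttcatgtaggtATGTTTCActatggtaata
ZNF586: aactttgatttTGTTTCAttcaacagagg
ZNF223: tttgaagttagTGTTTCAgccatagctca
ZNF226: ctcaaagtcagTGTTTCAgccgtagctcc

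The deposited tables give each gene a TPM (a level per transcript length, relative to all transcripts) and a coverage (mean read depth over the gene). Ratios in TPM are log2((AS + 1)/(SC + 1)), a scale on which ratios of low genes come out too small. Ratios in coverage are computed after scaling coverage to TPM and adding 0.1. Genes that averaged at least 1 TPM across AS and SC are called measured, and at least 2-fold means a log2 ratio of 1 or more in size. The libraries were of similar depth, with 3.54 units of coverage per unit of FPKM in AS and 3.62 in SC. The cell line label was set beside its markers. The epithelial keratins KRT18 (479 TPM in AS, 558 in SC), KRT8 and KRT7 were abundant, with MUC1 at 24.1 TPM in AS and 28.6 in SC and EPCAM and NAPSA under 2 TPM in both, whereas NKX2-1, the lineage factor of lung adenocarcinoma, was at 0.0317 TPM in AS and 0.0324 in SC, CDH1 was under 0.02 TPM in both, and KRT19 and SFTPC were listed at 0. Markers of leukocytes were at or near 0 in both libraries apart from CD68 (203 TPM in AS, 285 in SC), and of the 5 fibroblast markers COL1A1 (15.8 TPM in AS, 26.3 in SC) and LUM (2.35 in AS, 1.67 in SC) passed 1 TPM, while COL1A2, DCN and PDGFRB were at or near 0.

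Most of these genes were barely transcribed. Of the 261 members, 45 were listed at 0 in both libraries and 188 averaged below 1 TPM; 73 were measured. At least 1 TPM was reached by 87 members in AS and 59 in SC. Of the 73 measured members, 53 had at least 1 TPM in both libraries, 19 in AS only and 1 in SC only, so 19 entered through the AS library alone. Summed over all members, TPM came to 916 in AS and 892 in SC, 0.0945% and 0.0916% of all annotated TPM. That near equality hid opposite differences, since the 10 members of the highest mean level summed to 541 TPM in AS and 617 in SC, and the other 251 to 375 TPM in AS and 275 in SC.

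Among the measured members, 19 were at least 2-fold higher in AS, 2 were at least 2-fold lower and 52 lay between. Those shares were 26.0% and 2.74%, against 16.5% and 2.17% of all 13669 measured genes. The median log2 ratio of the members was 0.33, against 0.28 for all measured genes, a difference of 0.04. With both libraries centred on that median of all genes, 11 members were at least 2-fold higher and 3 lower, against 9.17% and 5.09% of all genes. In coverage 22 were higher by at least 2-fold and 1 lower, against 19.3% and 2% of all measured genes, with a median of 0.59 for the members and 0.33 for all genes. Of the 53 members with at least 1 TPM in both libraries, 7 (13.2%) were at least 2-fold higher and 1 (1.89%) lower, with a median of 0.12. Over all 12258 genes at that level in both the shares were 13.7% and 1.66%, with a median of 0.24.

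Members with and without a KRAB box were compared. Of 47 measured members with a KRAB box, 16 were higher in AS by at least 2-fold and 0 lower, and their median log2 ratio was 0.63 in TPM and 0.81 in coverage. Of these 47, 29 had at least 1 TPM in both libraries. Of the 29, 5 (17.2%) were higher in AS by at least 2-fold and 0 lower, with a median of 0.23. Over all 12258 genes at that level in both, 13.7% were higher and 1.66% lower, with a median of 0.24. Of 24 measured coding members without a KRAB box, 2 were at least 2-fold higher and 2 lower, with a median of -0.21 in TPM and -0.15 in coverage. In 23 of these 24 both libraries had at least 1 TPM. Of the 23, 2 (8.70%) were higher by at least 2-fold and 1 lower, with a median of -0.19. After centring on all genes the counts among the 47 were 10 higher and 1 lower, and among the 24 they were 1 higher and 2 lower. Genome-wide, at the same filter, the share past 2-fold was 16.5% upward in AS and 2.17% downward. With centring those shares came to 9.17% and 5.09%. Over all 210 KRAB members, measured or not, summed TPM was 258 in AS and 170 in SC, and summed scaled coverage 138 in AS and 81.2 in SC. Over the 35 without a KRAB box, summed TPM was 643 in AS and 714 in SC. The classes also differed in base composition, with a median transcript GC content of 43.3% in measured KRAB members and 62.6% in measured coding members without the box.

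The log2 ratio followed GC content across the genome of these libraries, and the zinc finger genes lay on that trend. Chromosome 19 is rich in G and C, and its other protein coding genes had a median GC content of 59.9%, while the members had 42.1%. Measured protein coding genes were split by GC content into 10 bins of equal size, and the median log2 ratio of those that are not members was 0.89 in the bin of lowest GC and -0.29 in the bin of highest GC. Of 71 measured coding members, 35 lay above the median of other coding genes in their own bin, with a median difference of -0.06; in coverage 37 lay above it, with a median difference of 0.08. KRAB members lay above it in 25 of 47 cases and those without the box in 10 of 24. Whether GC content, or what goes with it, has a part in the ratios was not tested. Spearman's rho between GC content and the TPM ratio, as a description over 71 genes that share both libraries, was -0.46, and over 10651 measured protein coding genes it was -0.64.

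**Figure D1:**
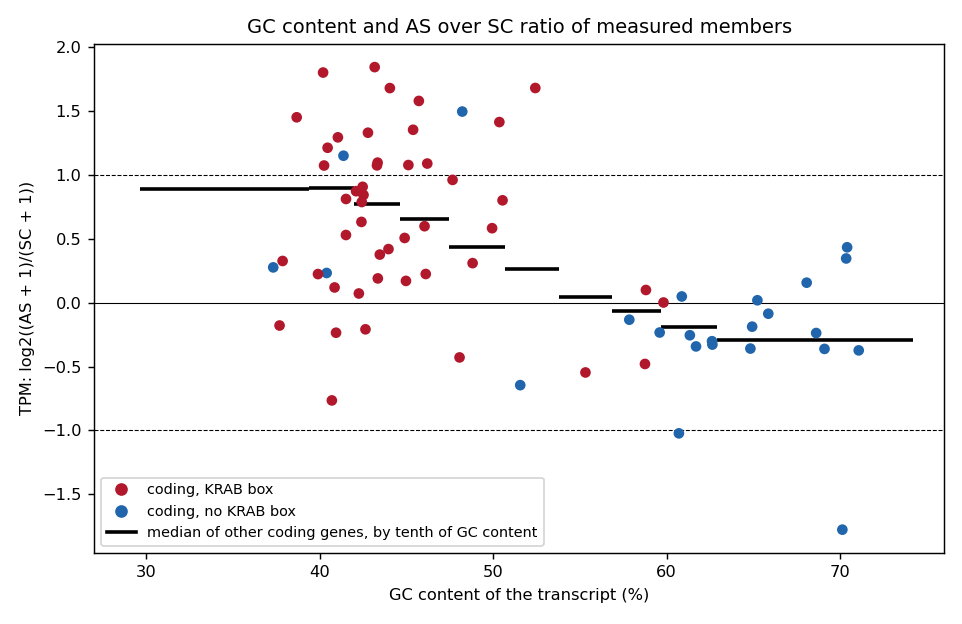
Log2 ratio of AS over SC in TPM (y axis) against the GC content of the transcript in percent (x axis) for measured coding members, red with a KRAB box and blue without; black bars are the medians of other measured coding genes in each of the 10 bins of GC content, and dashed lines mark 2-fold. The bars go from 0.89 in the bin of lowest GC to -0.29 in the highest, and the members scatter on both sides of them, 35 of 71 above.

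Zinc finger genes elsewhere, and other genes nearby, gave the members a frame. On other chromosomes 293 genes met the same symbol rule and 157 were measured. Of the 157, 31 (19.7%) were higher in AS by at least 2-fold and 0 lower, with a median log2 ratio of 0.41. Over all measured genes 16.5% were higher and 2.17% lower. Of the other genes of chromosome 19, 921 of 2602 were measured, 39 were at least 2-fold higher and 31 lower, and the median was -0.16. The members' median of 0.33 was thus close to that of zinc finger genes on other chromosomes and above that of their neighbours. At least 1 TPM in both libraries was reached by 53 of 73 measured members, 135 of 157 zinc finger genes elsewhere and 866 of 921 neighbours. Over those 53 members the median was 0.12. Medians of the other sets at that level were not taken. The members' median GC content (45.7% when measured) was closer to the 49.4% of the zinc finger genes elsewhere than to the 60.7% of the neighbours. By the number of fingers, measured coding members had a median log2 ratio of -0.25 with 0 to 5 and 0.23 with 6 to 10. With 11 to 15 it was 0.57 and with 16 to 36 it was 0.84. The median GC content of all coding members in those bins was 59.6%, 43.0%, 42.0% and 40.9%. Some of the measured members entered through AS alone, such as ZNF224 with 18 fingers (2.71 TPM in AS, 0.0632 in SC). Medians by finger number were not taken at 1 TPM in both libraries.

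Along the chromosome, members whose starts lay under 1 Mb apart formed 17 groups, numbered here from the start of the short arm, and 9 of them with at least 5 members held 249 genes. Levels differed far more between groups than between libraries. Group 17, 60 genes at the end of the long arm (55.99 to 58.99 Mb in the tables' coordinates), held 51.7% of all member TPM in AS and 53.0% in SC. Group 6, the 41 genes beside the centromere between 19.8 and 24.3 Mb, held 1.19% in AS and 0.929% in SC, with 2 members measured. In 9 of 9 groups with at least 5 KRAB members their summed TPM was higher in AS, and likewise in coverage. Over all annotated symbols 16656 were higher in AS and 8945 lower. Group 1 differed little, with 2.20 TPM in AS and 1.95 in SC, and 2 KRAB members higher and 2 lower. Among groups with fewer KRAB members, the KRAB sum was lower in TPM but not in coverage in groups 11 (3.95 in AS, 4.43 in SC) and 14 (1.50 in AS, 2.37 in SC). It was higher in group 4 (1.45 in AS, 0.528 in SC). Coding members that lack the box were present in 6 of the groups with at least 5 members. Their summed TPM and coverage were lower in AS in 3 groups (2, 13 and 17) and higher in the other 3, where they were few or low: group 3 had 8.39 TPM in AS and 7.83 in SC, group 6 had 0.0452 TPM in AS and was listed at 0 in SC, and group 10 had 13.1 TPM in AS and 5.99 in SC.

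**Figure D2:**
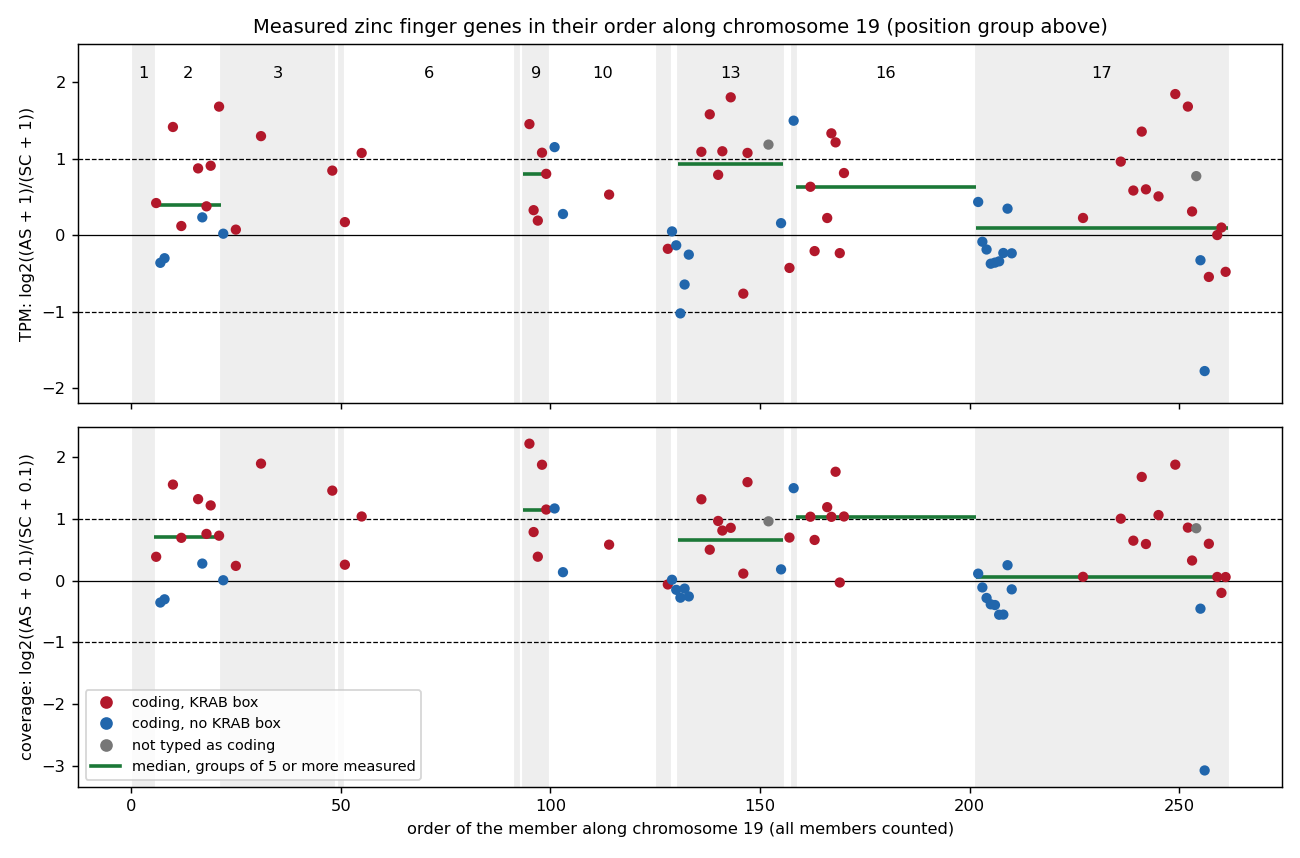
Log2 ratio of AS over SC for the 73 measured members in TPM (upper) and in scaled coverage (lower) against the order of all 261 members along chromosome 19; grey and white bands are the 17 position groups, numbers mark those with at least 5 members, colours give the KRAB class, dashed lines 2-fold, and green lines the median of groups with at least 5 measured members. In groups 2, 13 and 17 the red points are mostly above 0 and the blue points mostly near or below it, and ZNF837 is lowest in both panels.

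In group 2 (7.07 to 9.90 Mb, 16 members, 10 measured) 2 KRAB genes stood out. ZNF317 had 11.5 TPM in AS and 3.68 in SC (log2 ratio 1.41; coverage 1.56). ZNF846 had 9.62 TPM in AS and 2.31 in SC (1.68), with a smaller ratio in coverage (0.73). ZNF358, with 9 fingers and no KRAB box and the most abundant member of all, had 92.5 TPM in AS and 119 in SC (-0.36). The 12 KRAB members of group 2 summed to 34.6 TPM in AS and 12.9 in SC, and its 3 coding members without the box to 130.4 TPM in AS and 162 in SC. The group's median log2 ratio was 0.40 in TPM and 0.71 in coverage. In group 3 (11.6 to 12.8 Mb, 27 members, 4 measured) ZNF700 had 2.99 TPM in AS and 0.627 in SC (1.30), and it shared 14.4% of its words with other genes, most with ZNF763. The 23 KRAB members of group 3 summed to 15.9 TPM in AS and 7.49 in SC.

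Group 6 was nearly silent. Its 41 members, 35 with a KRAB box, summed to 10.9 TPM in AS and 8.29 in SC, and 13 were listed at 0 in both libraries. This cluster holds genes studied for the silencing of young transposable elements. ZNF91, a repressor of SVA and LINE-1 elements with 31 fingers, had 0.249 TPM in AS and 0.246 in SC. ZNF93, a repressor of LINE-1, had 1.89 TPM in AS and 0.373 in SC (log2 ratio 1.07; coverage 1.04), just past 2-fold. ZNF43 had 1.33 TPM in AS and 0.292 in SC, ZNF431 0.716 in AS and 0.381 in SC, and ZNF675, also described as an inhibitor of TRAF6 signalling, 0.110 in AS and 0.680 in SC. ZNF85 and ZNF257 stayed under 0.04 TPM in both. In coverage ZNF431 (0.430 in AS, 0.699 in SC) and ZNF675 (0.0556 in AS, 0.0273 in SC) differed in the direction opposite to their TPM, so no direction is given for them.

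At 35.0 to 35.5 Mb lies group 9 (6 members), in which all 5 KRAB genes were measured and higher in AS, with medians of 0.80 in TPM and 1.15 in coverage. Of the 5, 1 (ZNF599) had at least 1 TPM in both libraries, with a log2 ratio of 0.19, and the other 4 entered through AS alone. ZNF302 had 3.69 TPM in AS and 0.713 in SC (1.45), and its coverage ratio of 2.22 was the largest of any measured member. ZNF302 shared 13.7% of its words with other genes, most with its neighbour ZNF181. ZNF599, the most abundant of group 9, had 12.2 TPM in AS and 10.6 in SC (0.19). In group 10 (36.7 to 38.3 Mb, 26 members, 3 measured) the most abundant gene was ZNF146, whose protein is made almost wholly of fingers and has no KRAB box, at 11.5 TPM in AS and 4.65 in SC (1.15; coverage 1.17). ZNF146 was 1 of only 2 measured coding members with no KRAB box found that were at least 2-fold higher in AS. The other was ZNF473 (ZFP100), a component of the U7 snRNP machinery that processes histone mRNA, which stands alone in group 15. It had 5.28 TPM in AS and 1.22 in SC (1.50, and 1.50 in coverage). Its identity to the KRAB consensus, 27.5%, was as high as any among coding members called without the box, so its class is less sure.

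**Figure D3:**
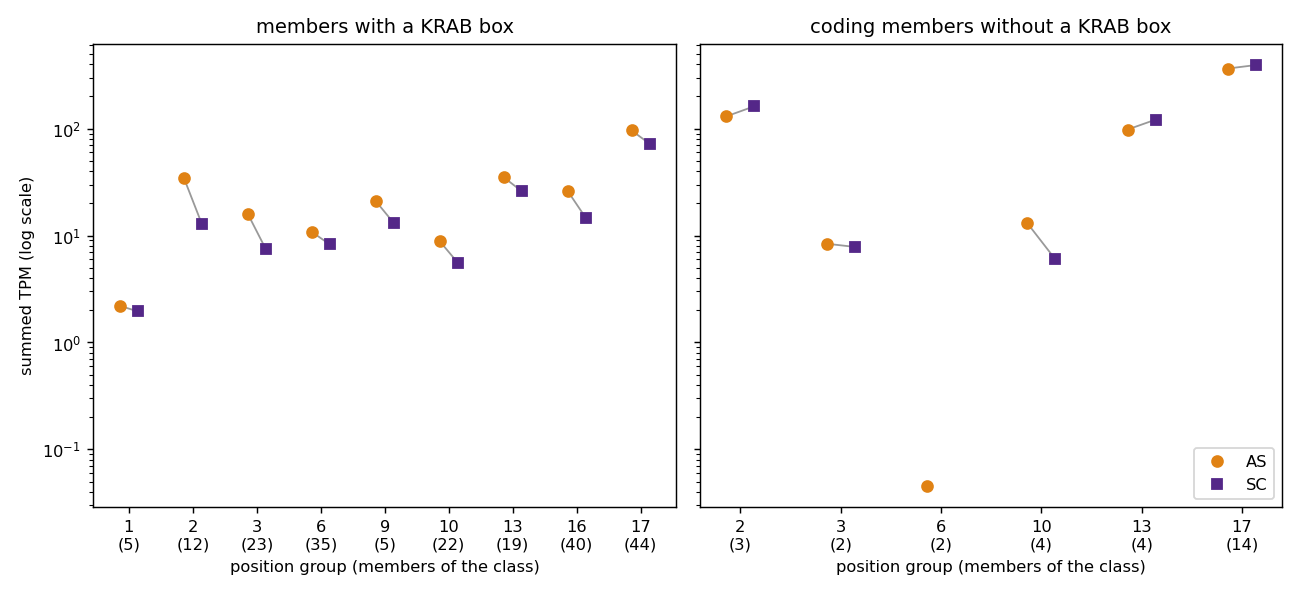
Summed TPM on a log scale (y axis) in AS (orange circles) and SC (purple squares) for the position groups with at least 5 members, split into KRAB members (left) and coding members without a KRAB box (right); the number of members of the class is in brackets, and a group summing to 0 in SC has no square. The KRAB sums are higher in AS in 9 of 9 groups of this size, by little in group 1 (2.20 TPM in AS, 1.95 in SC). The sums without the box are lower in AS in groups 2, 13 and 17 and higher in groups 3, 6 and 10.

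Group 13 (44.03 to 45.58 Mb, 25 members, 12 measured) held genes that differed in either direction within 1 cluster. It begins with ZNF575, ZNF576 and ZNF428, which lack a KRAB box. ZNF575 had 1.14 TPM in AS and 3.35 in SC (-1.02), but in coverage the ratio was -0.28. ZNF576 had 9.91 TPM in AS and 16.1 in SC (-0.65; coverage -0.13), and ZNF428, with 1 finger found, had 81.0 TPM in AS and 96.8 in SC (-0.25; coverage -0.26). A tandem array of KRAB genes follows, from which 5 measured members (ZNF45, ZNF155, ZNF223, ZNF224 and ZNF227) and ZNF229 were at least 2-fold higher in AS in TPM, and 2 of these 6 in coverage. In SC 5 of the 6 were below 1 TPM. Over all measured genes 16.5% were at least 2-fold higher in TPM and 19.3% in coverage. ZNF155 had 5.10 TPM in AS and 1.04 in SC (1.58; coverage 0.50). ZNF224, described as a repressor of the aldolase A gene, had 2.71 TPM in AS and 0.0632 in SC (1.80), but its read depth was under 0.2 in both libraries (0.188 in AS, 0.0325 in SC). ZNF226, between ZNF224 and ZNF227, had 11.1 TPM in AS and 19.6 in SC (-0.76), with nearly the same read depth in both, 4.65 in AS and 4.72 in SC (coverage ratio 0.11). TPM thus gave the near neighbours ZNF224 and ZNF226 opposite directions that coverage did not. In a gene with several transcripts the division of reads among them can move TPM without a change in depth; that was not tested. Group 13's median log2 ratio was 0.93 in TPM and 0.66 in coverage over 12 genes, and -0.45 in TPM over its 6 members with at least 1 TPM in both libraries.

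The 43 genes of group 16 (52.1 to 54.1 Mb, 40 with a KRAB box) gave 7 measured members, with a median of 0.63 in TPM and 1.03 in coverage. Over its 4 members with at least 1 TPM in both libraries the median in TPM was 0.0083, and over all 43 genes it was 0. ZNF841 had 3.35 TPM in AS and 0.730 in SC (1.33; coverage 1.03), and ZNF616 had 2.93 TPM in AS and 0.695 in SC (1.21; coverage 1.76). ZNF836, the most abundant of group 16, had 2.94 TPM in AS and 3.63 in SC (-0.23, and -0.03 in coverage). It shared 14.7% of its words with other genes. With ZNF841, the member it shared most with, it shared 1.33%. ZNF432, which overlaps ZNF841 on the same strand, had 1.46 TPM in AS and 1.10 in SC (0.22), while its coverage ratio was 1.19. The KRAB members of group 16 summed to 26.1 TPM in AS and 14.7 in SC. ZNF677 and ZNF534 were listed at 0 in both libraries, ZNF808, a gene needed for pancreas development, had 0.0251 TPM in AS and was listed at 0 in SC, and ZNF331, an imprinted gene, had 0.219 TPM in AS and 0.0828 in SC.

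Group 17 joined stretches of different character. With the gap set at 0.5 Mb it split into 17 members from ZNF628 to ZNF835, with 6 KRAB genes, and 43 from ZNF264 to ZNF446, with 38. In the first stretch 9 members were measured, 0 passed 2-fold, the median log2 ratio was -0.23 in TPM and -0.28 in coverage, and summed TPM was 363 in AS and 388 in SC. In the second stretch 16 were measured, and 3 were higher in AS by at least 2-fold and 1 lower. Over all measured genes 16.5% were higher and 2.17% lower. The median of the second stretch was 0.41 in TPM and 0.59 in coverage, and its summed TPM was 111 in AS and 85.2 in SC. The median GC content of the measured genes was 65.9% in the first stretch and 49.9% in the second.

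The first stretch of group 17 held most of the abundant members. ZNF787 had 87.5 TPM in AS and 68.6 in SC (0.35), and it was the only one of the 10 most abundant members that was higher in AS. ZNF580 had 57.4 TPM in AS and 73.0 in SC (-0.34; coverage -0.55), and ZNF581, which overlaps it on the same strand, had 41.8 in AS and 49.3 in SC (-0.23; coverage -0.55). ZNF579 had 49.9 TPM in AS and 53.0 in SC (-0.09), ZNF524 42.9 in AS and 49.0 in SC (-0.19), ZNF444 34.7 in AS and 41.0 in SC (-0.24), and ZNF865 25.2 in AS and 32.9 in SC (-0.37). With ZNF358, ZNF428 and ZNF414 (28.0 TPM in AS, 34.7 in SC) these are the 10 most abundant members. No KRAB box was found in any of the 10, all lay within 2-fold, and their median log2 ratio was -0.25 in TPM and -0.29 in coverage.

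In the second stretch the largest ratio of any measured member on the log2(TPM + 1) scale was that of ZNF606 (58488421 to 58514717 in the tables' coordinates, minus strand), a KRAB gene with 3.10 TPM in AS and 0.142 in SC (1.85), and coverage gave 1.88. With 0.1 TPM added ZNF224 was larger (4.10, against 3.73 for ZNF606), and in FPKM ZNF846 (1.35) and ZNF274 (1.25) were (ZNF606 1.20). ZNF586 had 5.51 TPM in AS and 1.55 in SC (1.35; coverage 1.68). ZNF274, which is known to bind the 3' ends of zinc finger genes themselves and to bring SETDB1 there, had 5.74 TPM in AS and 1.10 in SC (1.68), with a coverage ratio of 0.86. ZNF264 had 1.66 TPM in AS and 0.157 in SC, and averaged just under the 1 TPM line. Near the end of the chromosome ZNF837 (58878985 to 58892427, minus strand, with no overlap of another gene on its strand) was the only measured member at least 2-fold lower in both measures. It had 0.314 TPM in AS and 3.50 in SC (-1.78), with read depths of 0.524 in AS and 6.23 in SC (coverage ratio -3.08). ZNF584 (1.82 TPM in AS, 3.11 in SC) and ZNF446 (11.1 in AS, 15.9 in SC) were lower in TPM but not in coverage, where their ratios were 0.60 and 0.06.

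**Figure D4:**
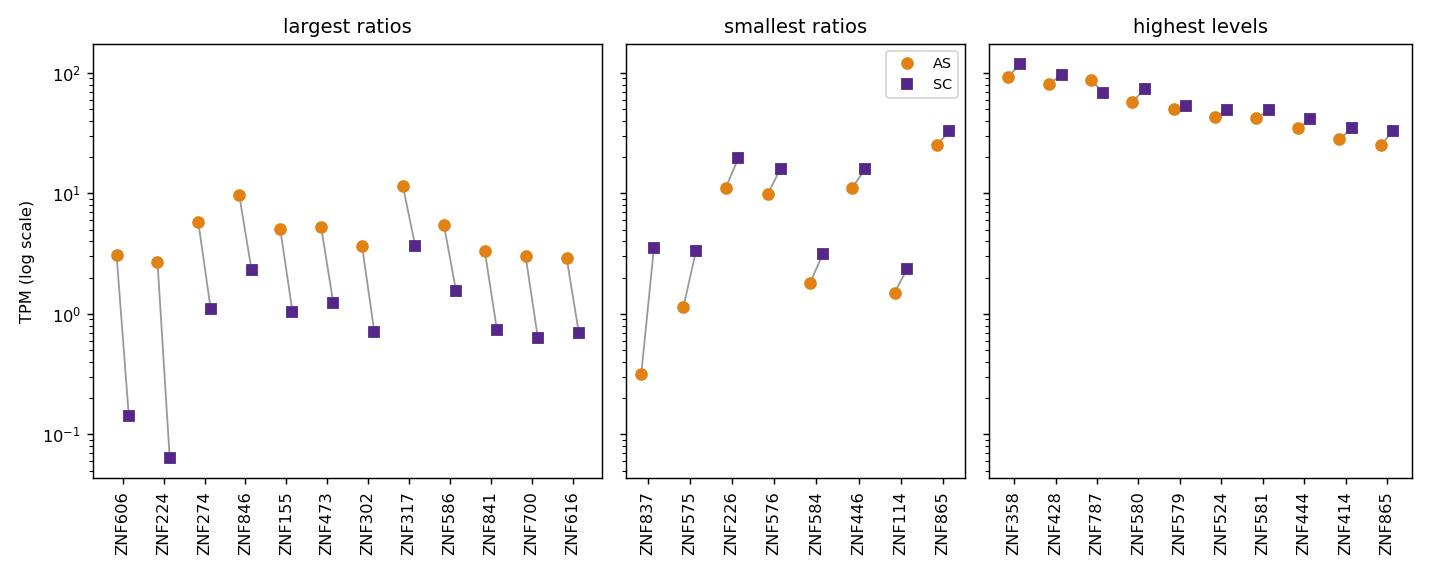
TPM on a log scale (y axis) in AS (orange circles) and SC (purple squares) for the members with the 12 largest and the 8 smallest log2 ratios among those with at least 2 TPM in 1 library, and for the 10 most abundant. Of the 12 largest ratios 9 are of genes at or below 1.22 TPM in SC, while the abundant genes differ little, between -0.37 and 0.35 on the log2 scale.

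Members with described roles were mostly low, like the members at large, of which 188 of 261 averaged below 1 TPM. Of the 28 named for a role, 18 were below 1 TPM in both libraries and 3 of these (ZNF382, ZNF534 and ZNF677) were listed at 0 in both; 6 were measured. Those measured were ZNF93, ZNF146, ZNF274 and ZNF473, each at least 2-fold higher in AS in TPM (16.5% of all measured genes were), and ZNF432 and ZNF671. ZNF274 was under 2-fold in coverage and ZNF93 reached 1 TPM in AS alone. ZNF671, whose promoter is often methylated in tumours, had 1.67 TPM in AS and 0.778 in SC (0.58; coverage 0.65). ZNF154 and ZNF582, known for the same, were under 0.05 TPM in both libraries. ZNF304 had 0.173 TPM in AS and was listed at 0 in SC; ZNF568, whose mouse counterpart silences a placental Igf2 transcript, was listed at 0 in AS and had 0.0112 TPM in SC. ZNF507 had 1.34 TPM in AS and 0.582 in SC, ZNF17 0.975 in AS and 0.761 in SC, and ZNF611 0.664 in AS and 1.20 in SC, the last again with a coverage ratio of the other sign (0.38). ZNF571, ZNF536 and ZNF765 stayed under 0.2 TPM in both.

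Genes too low to be measured leaned the same way as the rest of the low genes. Of 188 members below 1 TPM, 102 were higher and 41 lower in AS, and they summed to 54.8 TPM in AS and 31.0 in SC. Of 8248 other protein coding genes below 1 TPM, 3102 were higher and 1419 lower. With these held to the GC content of the middle of the low members (38.7% to 43.5%), 780 of 1716 were higher and 176 lower, and they summed to 366 TPM in AS and 181 in SC. Promoters were compared by their CpG content. In the RefSeq windows of 250 bases before to 50 after the start, measured members had a median of 22 CpG and members not measured 19.5, against 14 over all promoters, while the 28 matched members of group 6 had 10.

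The deposited measures gave 67 of 73 measured members the same sign. Those that differed were ZNF226, ZNF114, ZNF350, ZNF584 and ZNF446, lower in TPM and higher in coverage, and ZNF324, where it was the other way round. Of the 19 members at least 2-fold higher in AS in TPM, 13 were so in coverage, and all 19 had a coverage ratio above 0. In 14 of the 19 a locus assembled from the reads overlapped the gene in both libraries, and 10 of these loci were at least 2-fold higher in AS. Of the 2 that were lower, ZNF837 was so in coverage too, and ZNF575 was not. Of the 73, 31 overlap another annotated gene on the same strand.

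**Figure D5:**
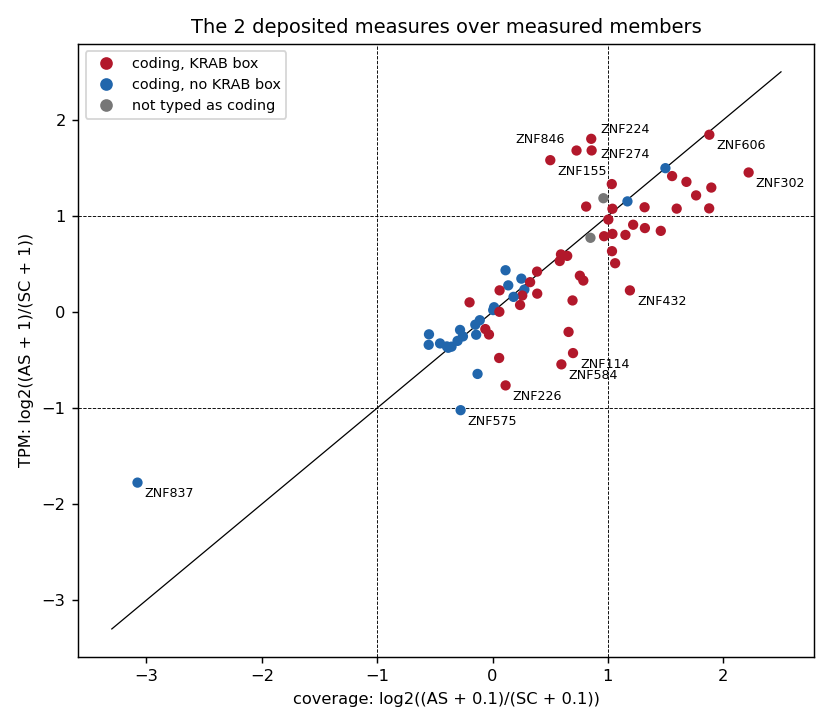
Log2 ratio of AS over SC in TPM (y axis) against the log2 ratio in scaled coverage (x axis) for the 73 measured members, coloured by KRAB class; the solid line marks equal ratios and dashed lines 2-fold. Points lie along the line in 67 of 73 cases on the same side of 0, with ZNF155, ZNF846, ZNF224 and ZNF274 well above it, ZNF226, ZNF584 and ZNF432 below it, and ZNF837 far to the lower left.

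Members with and without seed sites for the microRNA were set beside other coding genes. Over the 16 measured members with a site in the annotated 3' UTR the log2 ratio had a median of 0.57, and over the 53 without one of 0.23. At least 2-fold higher in AS were 3 of the 16 and 14 of the 53. Over all measured protein coding genes the medians were 0.63 with a site and 0.19 without. Of these genes 788 of 2867 with a site and 1057 of 7676 without one were at least 2-fold higher. Members with a site also had longer annotated 3' UTRs (median 3512 bases against 757) and a lower GC content (43.1% against 48.8%). Within the KRAB members the medians were 0.71 over 14 genes with a site and 0.63 over 31 without, and 3 and 12 of them were at least 2-fold higher. ZNF791, with the 8-base site printed above, had a log2 ratio of 0.84 (3.99 TPM in AS, 1.78 in SC) and ZNF587 one of 0.51 (2.59 TPM in AS, 1.53 in SC). ZNF223 and ZNF226, with their like sites, had 1.10 and -0.76 in TPM, and 0.81 and 0.11 in coverage.

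Cofactors of KRAB proteins and other genes of heterochromatin were followed as 1 list. Of 29 on the list 25 were measured, of which 5 were at least 2-fold higher (16.5% of all measured genes were), 0 lower and 20 between, with a median log2 ratio of 0.46, against 0.28 for all genes. TRIM28, the shared partner of the KRAB boxes, had 334 TPM in AS and 383 in SC (-0.20), far above any of the zinc finger genes. SETDB1 had 10.7 TPM in AS and 8.97 in SC (0.23). ATF7IP, which stabilises SETDB1, had 12.1 TPM in AS and 0.470 in SC (3.15), with coverage of 1.44 in AS and 0.400 in SC (1.60). The heterochromatin protein CBX3 had 118 TPM in AS and 54.0 in SC (1.11), the HUSH component FAM208A (TASOR) 4.74 in AS and 1.23 in SC (1.37), the deacetylase HDAC2 20.6 in AS and 7.84 in SC (1.29), and the methyltransferase SUV39H2 5.55 in AS and 1.30 in SC (1.51). Of the 21 listed C2H2 genes of chromosome 19 with other names, 7 were measured, and ZFP82 (3.83 TPM in AS, 0.898 in SC; 1.35) and ZSCAN18 (4.81 in AS, 1.31 in SC; 1.33) were at least 2-fold higher in TPM, with coverage ratios of 0.80 and 0.49.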

How the data were processed

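Per the labels' protocols, total RNA from NCI-H2030 cells was made into directional libraries. For each library the authors deposited a table whose columns, by the file headers, are coverage, FPKM and TPM. The deposited coverage is a signal of read depth; the deposited FPKM and TPM differ by 1 constant in each library. Read numbers, aligner and quantifier: not given in the sources used here. Submitters' processing notes name GRCh38 and hg38, but the largest member end, 58992597, lies past the last chromosome 19 gene of GENCODE release 29 (58599801), so positions are printed as the tables give them and the build is not settled. Depth is known only as coverage per FPKM, so no counting interval was computed.

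Rows of 1 symbol were summed (5 members had 2 identifiers). Coverage was divided by the library's coverage per FPKM and multiplied by its TPM per FPKM. GENCODE transcripts, matched by identifier for 259 members, gave type, GC content, 3' UTR, shared 50-base words, fingers and the KRAB box, called where a 40-residue window of the translated coding sequence was at least 40% identical to a consensus of the members; coding members called without it reached at most 27.5%. This replaced protein sequences. Named genes were the 10 most abundant members, the 12 largest and 8 smallest ratios among those with at least 2 TPM in 1 library, the highest, largest and smallest of each position group with at least 5 measured members, 28 members with described roles, and list members past 2-fold. Other genes named were chosen after their values were seen. Members and lists were chosen with earlier results of these data known. The ratio and grouping steps were tested on simulated data. Alternatives were other pseudocounts, filters, scalings, measures, gaps and gene subsets. Python 3.11.15, pandas 2.3.3, numpy 2.4.6, biopython 1.88 and matplotlib 3.10.9 were used.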

Additional observations from a re-analysis of the deposited data

How the results depend on the processing

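No paired analysis was possible because each group is 1 library. A count is said to move if it differed by over 1.5 times from the value reported, and a median if it differed by over 0.58 on the log2 scale. The 19 members at least 2-fold higher in AS became 0 with 5 TPM added, 3 at a mean of at least 5 TPM, 11 after centring, 9 with the trimmed mean scaling, 9 in FPKM, 10 of 42 members that overlap no gene on the same strand, and 7 of 53 with at least 1 TPM in both libraries. The 2 at least 2-fold lower became 0 with 5 TPM added and at a mean of at least 5 TPM, and 1 in coverage, in FPKM, in assembled loci and with at least 1 TPM in both. Median log2 ratios moved for group 9 to 1.45 with 0.1 TPM added, and to 0.19, on 1 gene, at 5 TPM or at 1 TPM in both; for group 13 to 0.34 with 5 TPM added, 0.28 with no filter, -0.45 at 5 TPM and at 1 TPM in both, and 0.16 with a gap of 2 Mb, which joins it to its neighbours; and for group 16 to 0.0 with no filter and 0.0083 at 1 TPM in both. The subsets at 1 TPM in both libraries and of members with few shared words were chosen after seeing the data. The other 92 values of counts and medians stayed within these limits, but some medians changed sign. That of the members was -0.09 at a mean of at least 5 TPM and -0.02 with the trimmed mean scaling. Its difference from all measured genes was -0.29 at a mean of at least 5 TPM and -0.16 with at least 1 TPM in both. The median of group 17, 0.10 as reported, was -0.19 at a mean of at least 5 TPM, -0.18 after centring, -0.25 with the trimmed mean scaling and -0.11 in assembled loci. Of 291 values of 35 named measured members, 43 moved by over 1.5 times and 280 kept their sign; those that turned were ZNF226, ZNF114, ZNF584 and ZNF446 in coverage, ZNF114 and ZNF584 in assembled loci, and ZNF599, ZNF432 and ZNF787 under another scaling. No value could be had for group 16 at a mean of at least 5 TPM, or for the difference from all measured genes in assembled loci. Read numbers are unknown, so how far depth limits the 188 members below 1 TPM cannot be said.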
